A study of Musca domestica with 24 samples.

Results

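The genes described here were close to absent from the heads of control female house flies and present in the heads of control males. They are the LOC genes (identifiers without a name) that had at least 10 normalized counts in each of the 3 GFP RNAi male heads and at most 3 reads in each of the 3 GFP RNAi female heads. The rule found 92 genes among 16443 LOC genes and 16540 genes in all, and 11033 LOC genes passed its male side alone. A normalized count is the number of reads of a gene divided by 1 size factor per library, and reads were recovered by dividing a value by the worth of 1 read in that library. The genes were chosen by their levels in GFP male and GFP female heads, so those values are given as a description without a test. What was tested is how the same genes behaved in heads that the rule did not use and in abdomens.

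RNA was sequenced from heads and abdomens of single Musca domestica flies of strain IIIM (3-6). RNA interference (RNAi) was directed against Md-tra, the house fly transformer gene, or, as the control, against GFP, a jellyfish gene that the fly lacks. Each tissue had 4 groups of 3 flies: Md-tra RNAi flies with the library code N, Md-tra RNAi flies with the code SR, GFP RNAi males and GFP RNAi females. Both Md-tra RNAi groups were phenotypic males by the labels. By the titles, N flies were genotypic females that had been sex-reversed, and SR flies were genotypic males. The headers of the deposited comparisons speak of normal and sex-reversed Md-tra RNAi males without the codes. In the authors' deposited table for abdomens the log2 fold change of normal over sex-reversed males had the sign of N over SR for 3641 of 3641 genes beyond 1 in size and above 10 normalized counts in both groups, which is the reverse of the titles. In that for heads it did for 987 of 1145 genes. Only the codes N and SR are used below for that reason, with no genotype attached. The labels give no age. Values of Md-tra are not analysed here, and the knockdown was not checked at its target.

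In house flies a male determiner on a young Y or Y-like chromosome keeps Md-tra from being spliced into its productive female form. Without the transformer protein the downstream genes doublesex and fruitless are spliced in the male mode, and a fly becomes male. When Md-tra is knocked down early, genotypic females develop as fertile males that lack the male-determining chromosome. In a IIIM strain that determiner sits on the third chromosome, which corresponds to Muller element A, an arm conserved among flies.

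Head libraries held 12080603 to 23355977 reads in N, 17156139 to 62303540 in SR, 57096789 to 79454339 in GFP males and 27872130 to 35498286 in GFP females. The upper limit of the rule, 3 reads, equalled 4.42 to 7.55 normalized counts in N heads, 1.95 to 5.35 in SR heads, 1.12 to 1.51 in GFP male heads and 2.78 to 4.05 in GFP female heads. A list of 50 genes marking male abdomens (highest in GFP male abdomens among genes with at most 3 reads in every GFP female abdomen, 1 of them male-limited in heads) summed to 151757 normalized counts in SR head replicate 2 and to 22693 in GFP female head replicate 2. The same list summed to 1338 to 2031 in N heads, 1980 and 2757 in the other 2 SR heads, 1929 to 2083 in GFP male heads and 1062 and 1734 in the other 2 GFP female heads. In many heads 1 gene made up most of the sum. Without the highest gene of each head it was 360 to 915 in N, 273 and 297 in those 2 SR heads and 256 to 455 in GFP males. It was then 124294 in SR replicate 2 and 14470 in GFP female replicate 2. At least 1 read was found for 18 to 38 of the 50 genes in each head. Symbols in the tables offered 1 fat body marker (yp3), 1 antennal marker (IR25a) and 1 sex determination gene (Sxl), and none is male-limited in heads. The yolk protein gene yp3 had 162 to 657 normalized counts in N heads, 1657 to 45604 in SR heads, 301 to 1207 in GFP male heads and 2141 to 192977 in GFP female heads, so the heads held differing amounts of its RNA. IR25a, a co-receptor of antennal neurons, was present in every head, at 73.1 to 726. In abdomens IR25a was found in every group, so not in antennae alone, and was lowest in GFP females. The gene yp3 was found there in both sexes. IR25a had 147 to 381 normalized counts in N, 47.1 to 95.9 in SR, 54.5 to 104 in GFP male and 0.569 to 1.65 in GFP female abdomens. In abdomens yp3 had 669 to 3173 in N, 6253 to 24021 in SR, 273 to 1975 in GFP males and 21.1 to 15574 in GFP females. The part of these markers in the results was not tested.

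Most of the 92 genes were expressed at a low level. Their mean in GFP male heads ranged from 13.7 to 1010.5 normalized counts with a median of 33.4, and the 11033 genes that passed the male side of the rule had a median of 574. A mean of 100 was reached by 5, 22 lay between 50 and 100, and 65 lay under 50. No read was found in any GFP female head for 12 genes, and 33 touched the limit of 3 reads in at least 1 of them. LOC101890396 was just inside the male limit with 18.4, 10.05 and 13.8 normalized counts in the GFP male heads, and LOC101890554 was just outside it with 10.1, 12.1 and 9.70. On the female side LOC105262427 stayed inside with 3 reads in 1 GFP female head, whereas LOC101896860, at 124, 248 and 173 normalized counts in GFP male heads, was left out by 4 reads in a GFP female head.

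The GFP male heads were not alike for these genes. Replicate 2 was the highest of the 3 for 77 of 92 genes (83.7%), against 41.0% of the 11033 genes that passed the male side, and replicate 1 was the lowest for 72 (78.3% against 38.2%). The median over the 92 genes was 19.3, 48.0 and 31.9 normalized counts in GFP male replicates 1 to 3. Over the 11033 genes the median ratio of replicate 2 to replicate 1 was 1.03, and over the 92 it was 2.17. The part of this spread in the results was not tested.

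In both Md-tra RNAi groups the level of most of these genes was below that of GFP males, although all of those flies were phenotypic males. N heads had a median of 2.95, 5.04 and 6.29 normalized counts over the 92 genes and SR heads 4.70, 4.22 and 4.46, against 19.3 to 48.0 in GFP male heads and 0 to 1.35 in GFP female heads. The ratio of the N mean to the GFP male mean had a median of 0.150, and that of SR to GFP males 0.165, where the 11033 genes gave 1.00 and 0.987. Since GFP male heads were chosen for being high, these ratios are descriptions and no test was applied to them.

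Only 22 genes reached 10 normalized counts in every N head and 9 did so in every SR head, against 94.6% and 93.4% of the 11033 genes. These shares have to be read with the lower level of the 92 genes and with depth, since 10 normalized counts were 3.97 to 6.79 reads in N heads, 5.61 to 15.4 in SR heads and 19.9 to 26.8 in GFP male heads. The level of 10 normalized counts was reached by 3 genes in all 6 Md-tra RNAi heads (91.5% of the 11033), by 19 in every N head but not in every SR head (3.04%), by 6 in every SR head but not in every N head (1.91%), and by 64 in neither (3.53%). With a minimum of 20 the count was 10 for N and 1 for SR, and without SR replicate 2 the SR count was 15 at the minimum of 10. At most 3 reads in every head were found for 32 genes in N (0.607%) and for 19 in SR (0.227%). In each of the 9 heads outside GFP males 8 genes, such as LOC101895112 and LOC101889592, had at most 3 reads. Any such gene of the 11033 (0.0725%) also meets the female side of the rule, so that share is no separate background. LOC101895112 had 0, 0 and 3.15 normalized counts in N heads, none in SR or GFP female heads and 10.1, 52.8 and 24.6 in GFP male heads.

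No read at all was found in N heads for 3 genes (0.0453% of the 11033), LOC101889685, LOC101888670 and LOC101895400, and in SR heads for 5 (0.0453%), LOC109614219, LOC109612167, LOC109614224, LOC101895112 and LOC101896660. LOC101888670 had 3.76, 1.95 and 3.56 normalized counts in SR heads, against 19.3, 37.2 and 33.2 in GFP male heads and at most 1.35 in GFP female heads. The floor of 3 reads in N heads, at 4.42 to 7.55 normalized counts, lies above these SR values.

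**Figure D1:**
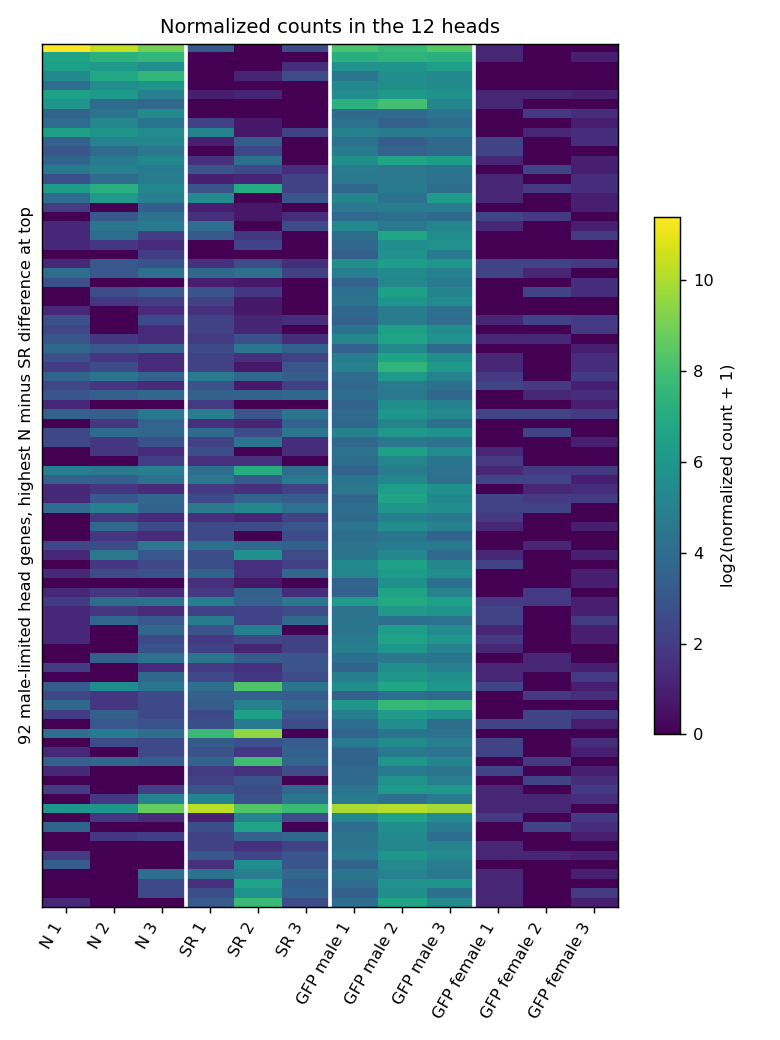
Level of each of the 92 male-limited head genes (rows) in each of the 12 head libraries (columns, 3 flies per group) as log2(normalized count + 1), with rows sorted by the difference of N and SR heads. GFP male columns are bright and GFP female columns dark by the rule that chose the genes, a few rows at the top are bright in N and dark in SR, and SR replicate 2 is bright for scattered rows near the bottom.

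The most abundant of the 92 genes was LOC101890558 on element E, a protein-coding gene by RefSeq. It had 63.3, 62.9 and 418 normalized counts in N heads, 1176, 317 and 205 in SR heads, 991, 1111 and 929 in GFP male heads and 1.35, 1.33 and 0 in GFP female heads. All 6 Md-tra RNAi heads were far above the GFP females, and 1 SR head stood above every GFP male head. In abdomens it had 1 read in 1 SR library and 2 in 1 GFP male library and none elsewhere. LOC101894825 and LOC101894984 were the other genes with at least 10 in all 6 Md-tra RNAi heads, at 14.7, 30.2 and 11.01 in N and 21.6, 37.6 and 17.8 in SR for LOC101894825.

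LOC101900340 and LOC101898781, also among the 10 most abundant, had low levels in Md-tra RNAi heads beside those of GFP male heads. LOC101900340 on element E had 13.3, 2.52 and 4.72 normalized counts in N heads and 9.40, 30.5 and 12.5 in SR heads, against 64.8, 190.4 and 175 in GFP male heads and no read in GFP female heads. LOC101898781 had 1.57 to 5.04 in N heads and 0.649 to 7.13 in SR heads, against 29.9, 175 and 68.3 in GFP male heads and at most 1.85 in GFP female heads. In both genes every Md-tra RNAi head lay below every GFP male head, as was the case for 62 of the 92 genes in N (26.4% of the 11033) and 63 in SR (22.8%). The groups overlapped for 27 genes in N (50.9%) and 29 in SR (60.1%), and N heads were all above GFP male heads for 3 (22.7%) and SR heads for 0 (17.1%). Set against GFP female heads, which the rule held near 0, every N head was higher for 39 genes (8.93%) and every SR head for 41 (8.48%). LOC101900369 and LOC101889318 reached part of the male level, with 2.95, 15.1 and 18.9 in N and 29.1, 11.03 and 21.4 in SR heads for LOC101900369, against 68.4, 119 and 89.2 in GFP male heads and at most 2.70 in GFP female heads. LOC101889318 had 11.8, 25.2 and 39.3 in N and 1.88, 16.9 and 0 in SR heads, against 48.2, 98.5 and 81.7 in GFP males and at most 1.35 in GFP females.

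Some genes were high in the SR head that also carried the male abdomen list. In SR replicate 2, 7 of the 92 were more than 10 times higher than in both other SR heads (1.79% of the 11033 genes) and 18 were at least 3 times higher (6.48%), although it was the highest SR head for only 34 (37.0% against 41.5%). LOC105262427 had 8.84, 45.3 and 20.5 normalized counts in N and 16.0, 306 and 19.6 in SR heads, against 46.8, 102 and 63.4 in GFP male heads and at most 4.05 in GFP female heads. In abdomens it had no read in SR and 1.44, 0 and 0 in GFP males. LOC101901739 on element A had 1.47, 0 and 0 in N and 8.46, 217 and 5.35 in SR heads. In abdomens it had 0, 2.41 and 21.3 in SR and 1.44 to 6.43 in GFP males. LOC101893484 and LOC109611947, at 236 and 127 in that SR head, had at most 2.13 and 1.06 in SR abdomens and at most 2.94 and 1.44 in GFP male abdomens. LOC101892092, at 91.5 there, had 21.8 to 147 in SR abdomens and 41.6 to 126 in GFP male abdomens.

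The comparison of N with SR heads asks whether the 2 kinds of Md-tra RNAi males differ at male-limited genes. The levels compared are those of groups that did not choose the genes, but the spread was estimated over all 12 heads, the GFP heads of the rule included. By that fit 7 of the 92 genes were called, all higher in N, where 0.302% of all 12237 genes tested were called (37 genes, 30 or 0.245% higher and 7 or 0.0572% lower in N). A fit of the 6 N and SR heads alone, which the rule did not touch, called 1 of the 92 (LOC109614219) and 2 genes in all. At an unadjusted p under 0.05 in the fit of 12 heads there were 25 of the 92 and 1001 of all genes. The 7 are LOC101892939, LOC109614219, LOC105262442, LOC109613990, LOC109614224, LOC109611652 and LOC101896660. Calls are adjusted p under 0.05 by limma with Benjamini-Hochberg adjustment over all genes tested, on log2(normalized count + 1). In bulk tissue a lower level can mean fewer cells of a type or less RNA per cell, and these cannot be told apart. All 92 genes passed the filter on low values through the GFP male heads. The median difference over the 92 was -0.37, with 32 genes higher and 60 lower in N, while the median over all genes was -0.02.

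LOC101892939, which the RefSeq table used here does not match and which carries no element, showed the highest level of the 7 in N heads. It had 2697, 1304 and 508 normalized counts in N heads, 8.46, 0 and 5.35 in SR heads, 275, 199.97 and 335 in GFP male heads and 1.35, 0 and 0 in GFP female heads. Every N head was above every GFP male head, and the SR heads were within a few reads of the GFP females. The difference of N and SR was 8.28 ± 0.85 (SE) on the log2 scale, with an adjusted p = 0.00273 by limma.

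LOC109614219, a protein-coding gene placed on element C, was the steadiest of the 7. N heads had 97.2, 159 and 186 normalized counts and GFP male heads 143, 169.8 and 149, so the groups overlapped. SR heads had no read, and GFP female heads had 1.35, 0 and 0.926. N was at least 43.7-fold higher than SR against a floor of 3 reads per library, and the fitted difference was 7.16 ± 0.45 (SE, log2, limma adjusted p = 0.000156). This call was kept under every alternative that was run, with adjusted p-values from 1.06e-11 to 0.0453.

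LOC105262442 and LOC109611652 followed the same order at lower levels. LOC105262442 had 85.4, 70.5 and 47.2 normalized counts in N heads, 0, 0 and 1.78 in SR heads, 53.3, 58.8 and 86.6 in GFP male heads and no read in GFP female heads. LOC109611652, a long non-coding RNA gene by RefSeq, had 91.3, 70.5 and 29.9 in N, 0.940, 1.30 and 0 in SR, 43.6, 73.4 and 57.5 in GFP male and 0.926 to 1.35 in GFP female heads. N and GFP male heads overlapped for both genes and SR heads did not reach them. The differences of N and SR were 5.57 ± 0.53 and 5.16 ± 0.54 (SE, log2), with limma adjusted p = 0.00228 and 0.00276.

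LOC109614224 on element C had 16.2, 50.4 and 58.2 normalized counts in N heads and 39.04, 48.2 and 42.5 in GFP male heads, and no read in any of the 3 SR or 3 GFP female heads. N was at least 12.3-fold higher than SR against the floor (log2 difference 5.22 ± 0.54 SE, limma adjusted p = 0.00273). LOC109613990 had 42.7, 111 and 178 in N, 0, 1.30 and 5.35 in SR, 21.1, 47.2 and 40.7 in GFP male and no read in GFP female heads, a difference of 5.29 ± 0.74 (SE, log2, limma adjusted p = 0.0154). LOC101896660, a protein-coding gene, was the lowest, with 11.8, 20.1 and 40.9 in N, none in SR, 14.2, 15.1 and 19.4 in GFP male and at most 2.67 in GFP female heads. Its difference was 4.49 ± 0.63 (SE, log2, limma adjusted p = 0.0155). By the cuts of the rule, 7 genes had at least 10 normalized counts in every N head and at most 3 reads in every SR head (0.0816% of the 11033), and 0 had the reverse (0.0181%). This set includes LOC109612167 and lacks LOC101892939, which had a few reads in SR heads. EdgeR's quasi-likelihood test on the reads called 4 of the 7 genes that limma called, leaving out LOC109614224, LOC109613990 and LOC101896660, and only LOC109614219 stayed called in a fit blocked by the number in the library code. LOC109613990 and LOC101896660 each lost the call when N replicate 2, N replicate 3 or SR replicate 1 was left out, and LOC101896660 also when SR replicate 3 was.

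**Figure D2:**
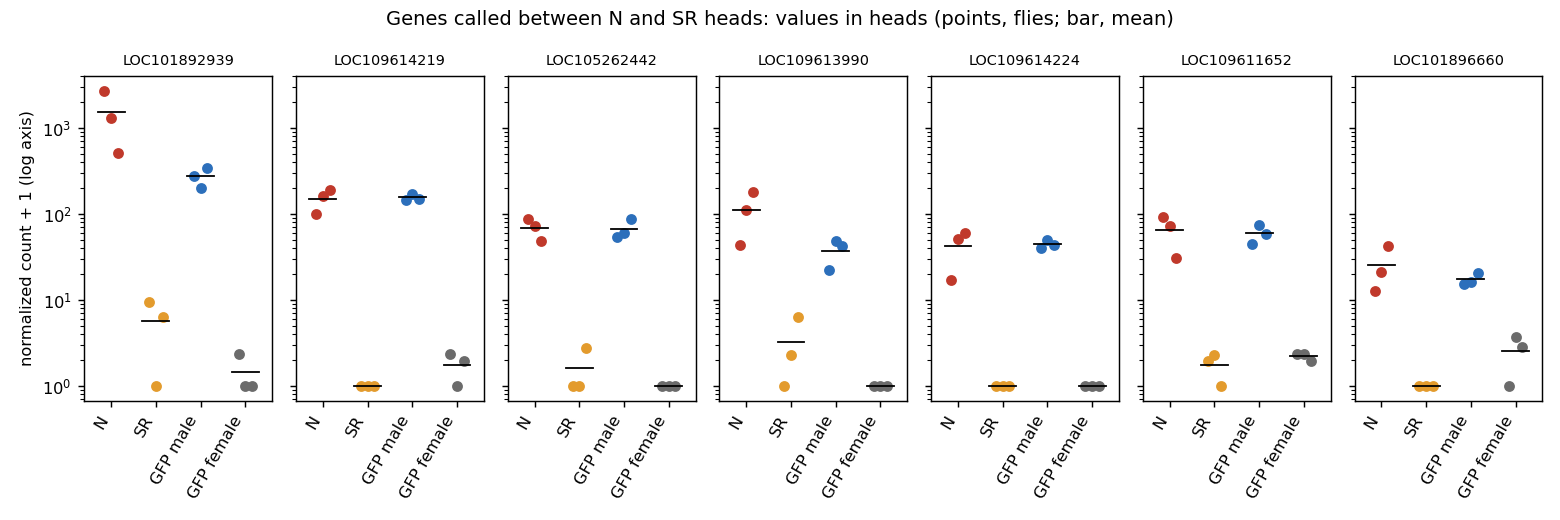
Normalized counts plus 1 on a log axis in the 12 heads for the 7 male-limited head genes called between N and SR heads, with 1 point per fly and a bar at the group mean. N points overlap the GFP male points in 6 genes and lie above them in LOC101892939, while SR points lie near the GFP female points at 0 to 8.46 normalized counts.

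Every N head was above every SR head for 14 of the 92 genes, 15.2% against 6.83% of all genes tested, and every N head was below every SR head for 10 (10.9% against 6.42%). The 14 are the 7 called genes, of which 2 lie on element C and 5 have none assigned, and 7 genes of element A. Thus 7 of the 17 element A genes were higher in every N than in every SR head, against 7 of the other 75, and among all genes tested the share was 11.5% on element A, 5.27% to 5.88% on elements B to E, 20.6% on F (7 of 34 genes) and 7.34% of genes with no element. This is a count without a test.

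The 7 element A genes were LOC109612167, LOC109612372, LOC109611689, LOC101890880, LOC109613693, LOC105262085 and LOC101890396, and none passed the limma threshold between N and SR. LOC109612167 had 60.4, 15.1 and 12.6 normalized counts in N heads, no read in SR heads, 154, 253 and 37.7 in GFP male heads and 1.35, 0 and 0 in GFP female heads. LOC109611689 had 25.0, 30.2 and 25.2 in N, 6.58, 4.54 and 1.78 in SR, 25.3, 21.6 and 20.5 in GFP male and 0 to 4.00 in GFP female heads. LOC109612372 was higher in N than in GFP males, at 88.4, 57.9 and 44.0 in N, 33.8, 0.649 and 3.56 in SR, 24.6 to 29.9 in GFP male and at most 1.85 in GFP female heads.

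**Figure D3:**
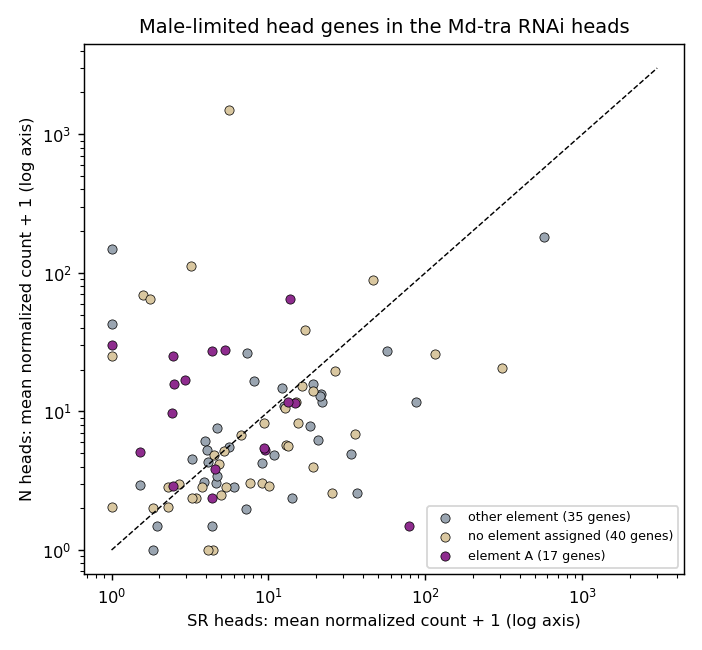
Mean normalized count plus 1 in N heads (vertical) against SR heads (horizontal), both on log axes, for the 92 male-limited head genes, coloured by Muller element, with a dashed line of equal levels. The 7 element A genes whose N heads were all above the SR heads lie above the line, the highest point is LOC101892939, and the point farthest to the right is LOC101890558.

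Annotation was sparser among the 92 genes than among all genes. RefSeq's table matched 56 of them (60.9%, against 82.5% of all 16540 genes), 54 as protein-coding and 2 as long non-coding RNA genes. The lack of other symbols follows from the rule, which took LOC genes only. No Muller element was assigned to 40 (43.5%, against 23.3% of all genes). Of the 52 with an element, 17 lie on A (32.7%, against 17.9% of all assigned genes), 16 on E (30.8% against 25.0%), 8 on C, 7 on B, 4 on D and none on F.

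Abdomens were used to ask whether the sex difference of heads extends to the rest of the body. Only 20 of the 92 had at least 10 normalized counts in every GFP male abdomen, against 87.7% of the 11033 genes, and 45 had at most 3 reads in each (3.26%). In N abdomens 23 reached 10 (85.1%), where 10 normalized counts were as little as 1.28 reads. At most 3 reads in each of the 12 abdomens were found for 27 genes (1.56%), and no read in any for 5 (0.145%). GFP female abdomens held at most 3 reads of 65 genes (6.76% of the 11033), and at least 10 normalized counts each of 5 (68.9%). Both sides of the head rule were met in abdomens too by 7 genes: LOC109614219, LOC109612167, LOC105262442, LOC109613990, LOC101899827, LOC101890880 and LOC101901282 (1.2% of the 11033 genes). Abdomens and heads were scaled separately, so levels are not compared between tissues.

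The filter on low values left 33 of the 92 genes in the abdominal tests, and 59 were not tested (93.7% of the 11033 genes were tested). A gene that passes through the group in which it is high has to differ, so the counts are descriptions of those 33 genes. In GFP male against GFP female abdomens 18 genes were higher in males and 4 lower by limma (Benjamini-Hochberg adjusted p under 0.05), where 44.3% and 33.4% of the 12537 genes tested were (77.7% in all). The median log2 difference was 2.80 over the 33 genes and 0.61 over all genes. Scaling by TMM moved the median of all genes to 0.48, and 18 and 4 of the genes were called with it.

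LOC109612167 on element A had the widest difference. GFP male abdomens held 4229, 1141 and 1388 normalized counts and GFP female abdomens no read (log2 difference 10.88 ± 1.22 SE, limma adjusted p = 1.86e-05). LOC101892939 had 1419, 1138 and 1263 in GFP males and 0.206, 0 and 2.56 in GFP females (9.61 ± 0.88 SE, adjusted p = 5.09e-06). LOC101894318 on element E had 243, 493 and 395 against 4.13, 0.720 and 0.569, and LOC101890880 on element A 74.6, 216 and 122 against 0.619, 0 and 0.284 in GFP females. In these 4 genes no GFP male abdomen overlapped a GFP female abdomen.

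Of the 33 genes tested, 4 were lower in the GFP male abdomen than in the GFP female abdomen although they were limited to the male head. Without the filter on low values limma called 7 of 87 genes lower in GFP males. Among the genes that the filter removed, LOC101900403 had 32, 43 and 193 reads in GFP female abdomens and 0, 0 and 1 in GFP male abdomens. LOC109613219 had 35, 24 and 65 reads against none. LOC101888858 had 4.31, 4.82 and 0.979 normalized counts in GFP male abdomens against 259, 272 and 206 in GFP female abdomens, a difference of -5.96 ± 0.92 (SE, log2, limma adjusted p = 0.000155). In heads the same gene had 18.8, 88.4 and 48.5 in GFP males and 0, 0 and 2.78 in GFP females. LOC101899257, LOC101893382 and LOC101887695 had log2 differences of -4.53, -4.12 and -3.80 in abdomens, at 0 to 0.979, 0.804 to 2.94 and 2.87 to 12.1 in GFP males against 13.2 to 55.4, 35.8 to 57.2 and 84.8 to 125 in GFP females. All 4 were also lower than in GFP females in N and in SR abdomens.

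**Figure D4:**
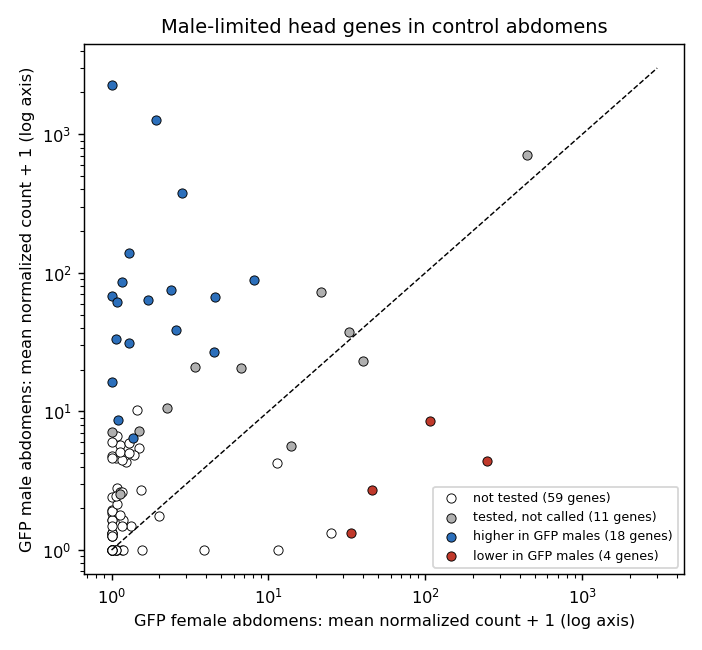
Mean normalized count plus 1 in GFP male abdomens (vertical) against GFP female abdomens (horizontal), both on log axes, for the 92 male-limited head genes, coloured by the limma call, with a dashed line of equal levels. The 18 genes called higher in males lie above the line, and most of the 59 untested genes sit near the origin. The 4 called lower lie below the line with female means above 30, as does LOC101894035, which was tested and not called.

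The share of the 33 genes called against GFP female abdomens was 81.8% in N and 54.5% in SR abdomens. The share called higher was 69.7% in N (42.1% of all genes) and 42.4% in SR (43.7%). Some of the 33 genes passed the filter on low values only with the N abdomens. Examples are LOC101887609, at 3, 7 and 3 reads in N, and LOC109614224, at 7, 7 and 0. The share in N is therefore partly set by the filter, and no conclusion is drawn from its distance to SR. Against GFP females 23 of the 33 genes were higher and 4 lower in N (42.1% and 34.1% of all genes tested, 76.3% in all), and 14 were higher and 4 lower in SR (43.7% and 32.8%, 76.5% in all), by limma with Benjamini-Hochberg adjustment. These comparisons share the GFP female abdomens with the previous one. LOC101894318, LOC101890880 and LOC109612167 were called higher in each of them. LOC101894318 had 1277, 979 and 1104 normalized counts in N and 125, 115 and 363 in SR, and LOC101890880 had 869.6, 375 and 381 in N and 103, 42.9 and 303 in SR, against under 5 in each GFP female abdomen for both genes. LOC109612167 had 3494, 734 and 163 in N and 61.0, 449 and 17.0 in SR, against no read in GFP females. The N abdomen replicates 1 and 3 were shallow, with 2689265 and 2756581 reads, so that 1 read was worth 7.83 and 7.77 normalized counts there.

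Of the 7 genes called between N and SR heads, 3 had N abdomens far above the SR abdomens. LOC101892939 had 17141, 1149.9 and 2930.1 normalized counts in N abdomens and 0.871, 0.604 and 3.19 in SR abdomens. LOC109614219 had 39.2, 86.1 and 38.9 in N and 0, 0.604 and 0 in SR, and LOC105262442 had 165, 113 and 148 in N and 2.61, 0.604 and 0 in SR. For each of these 3 genes the SR abdomens lay within the few reads of the GFP females, and the N abdomens lay at or above 38.9. For LOC109614219 the N abdomens held 5, 51 and 5 reads, so its values in the shallow N replicates 1 and 3 rest on 5 reads each.

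The test of N against SR abdomens called 8 of the 33 genes, 7 higher and 1 lower in N, where 8.56% and 6.05% of all 12537 genes were (14.6% in all). LOC101892939 differed by 10.70 ± 0.88, LOC105262442 by 6.30 ± 0.57 and LOC109614219 by 5.47 ± 0.51 (SE, log2), with limma adjusted p = 0.000625, 0.000937 and 0.00111, and these 3 were called under every alternative run for this comparison. LOC109613990 at 86.2, 33.8 and 179 in N against 11.3, 3.62 and 10.6 in SR, and LOC109611652 at 47.0, 45.6 and 7.77 against 3.49, 5.43 and 2.13, were also higher in N (limma adjusted p = 0.0152 and 0.0367). Of the 7 genes called higher in N heads, 5 were thus called higher in N abdomens too, against 18 of the 28 genes of the whole table that were called higher in N heads and tested in abdomens (0.161% of the 11178 genes tested in both tissues). LOC109611652 lost its abdominal call when any 1 of 5 libraries was left out (N replicates 1 and 2 and SR replicates 1 to 3), LOC109613990 lost it without SR replicate 2, and both lost it without the 2 shallow N abdomens. LOC101889686 and LOC101894318 were higher in N as well, LOC101889686 at 313, 297 and 179 against 35.7, 14.5 and 33.0 in SR (limma adjusted p = 0.0131), and both lost the call without the shallow N abdomens, LOC101894318 also without SR replicate 2. The count of genes called was 4 without SR replicate 2, 13 without SR replicate 3 and 3 without the shallow N abdomens.

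LOC101896660 went the other way. In abdomens it had 823, 108 and 85.5 normalized counts in N and 14597, 7824 and 12738 in SR, against 775, 669.7 and 678 in GFP males and 1254, 61.0 and 6.82 in GFP females. The SR abdomens were above all 9 others, whereas the SR heads had no read of it. SR exceeded GFP females by 7.06 ± 1.47 (SE, log2, limma adjusted p = 0.00125). The difference of N and SR was -5.84 ± 1.47 (SE, log2, limma adjusted p = 0.0271), and the call was lost with edgeR, without the shallow N abdomens, and when N replicate 2, N replicate 3, SR replicate 1 or SR replicate 2 was left out. LOC109614224 gave few reads in abdomens, 54.8, 11.8 and 0 normalized counts in N, none in SR, 0, 10.5 and 7.84 in GFP males and none in GFP females, and N and SR were not called apart.

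**Figure D5:**
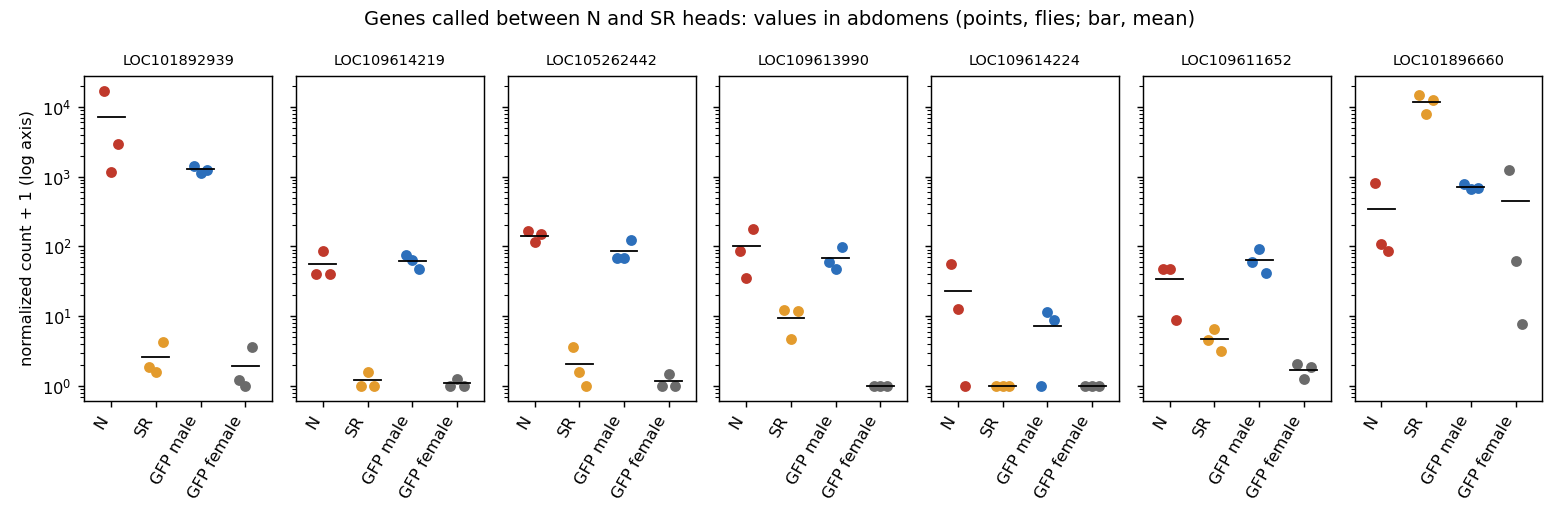
Normalized counts plus 1 on a log axis in the 12 abdomens for the same 7 genes as in the plot of heads, with 1 point per fly and a bar at the group mean. In LOC101892939, LOC109614219 and LOC105262442 the SR points lie with the GFP females at 3.19 normalized counts or less, and in LOC101896660 the SR points are the highest at 7824 to 14597.

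Against GFP males few of the 33 genes differed in abdomens. SR abdomens had less of LOC101892939, LOC109614219 and LOC105262442 by limma (log2 differences -9.09 ± 0.88, -5.69 ± 0.51 and -5.52 ± 0.57 SE, Benjamini-Hochberg adjusted p = 0.00232, 0.00152 and 0.00335), 3 of the 20 genes called in all (0.16% of 12537). SR and GFP male abdomens of one number varied together, and 3 of the 33 genes were called with the replicate number as a block and 0 with the number of the library code as a block. EdgeR called 2 genes in all and 0 of the 33, with 10 of the 33 at an unadjusted p under 0.05. The call of LOC105262442 was also lost in a fit of SR and GFP male abdomens alone. N abdomens had more of LOC101889686 and LOC101898781 than GFP males (8.88% of all genes called). LOC101898781 had 39.2, 30.4 and 69.9 normalized counts in N against 2.87, 0.804 and 0.979 in GFP males (log2 difference 4.22 ± 0.77 SE, limma adjusted p = 0.0180), and LOC101889686 313, 297 and 179 against 8.61, 41.8 and 26.4 (3.51 ± 0.64 SE, limma adjusted p = 0.0180). Both calls ended without GFP male replicate 1 and without the shallow N abdomens, and that of LOC101898781 also without N replicate 3 or GFP male replicate 2.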

How the data were processed

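The mRNA of single flies was made into stranded libraries, per the labels' protocols, from 1.5 µg of RNA (1.2 µg for GFP female head replicate 1). Tools listed in the submitters' processing notes are DESeq2 1.16.1, HTSeq 0.9.1, HISAT2 and CASAVA 1.8, with no role stated. No genome build is given in the sources used here. For each tissue a table of normalized counts was deposited, which is a signal equal to reads over a size factor. The deposited tables also hold the authors' mean signal, log2 fold changes and p-values, per the file headers, which served only to compare group names. Whole reads were recovered for 100% of values above 0 (tolerance 0.001).

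Groups were tested in limma 3.58.1 under R 4.3.3, with a trended prior, on log2(value + 1) over the 12 libraries of a tissue, for genes with at least 3 libraries at 10, with Benjamini-Hochberg adjustment over all genes kept (threshold 0.05). The plan named edgeR for raw counts, and the unit decided for limma. As alternatives, edgeR 4.0.16 and DESeq2 1.42.0 were run on those recovered reads. With edgeR there were 21 genes called between N and SR heads, 10322 between the sexes in abdomens and 1072 between N and SR abdomens. The limma procedure was tested on simulated data. Floors are 3 reads and cover counting error only. The labels do not say whether flies came from separate cultures, so p-values measure only the spread between these flies.

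The genes and lists were chosen with earlier results of these data known. Genes were named by a rule: the 10 highest in GFP male heads, called genes without overlap by size of change, genes at the limits, and genes without reads in a Md-tra RNAi group. Other named genes, those of element A and of small counts, were chosen after their values were seen. Muller elements are those listed in the deposited tables, and gene types come from a RefSeq table of the assembly Musca_domestica.polishedcontigs. Marker lists for testis and sperm, accessory gland, eye and muscle matched 0 symbols. SR and GFP male abdomens of one replicate number varied together (correlations of deviations 0.179, 0.321 and 0.465), as taken from these data. The own number was also the best match between N and SR heads, and for GFP male and N abdomens against GFP female abdomens. Those correlations were 0.0236 to 0.247. Paralogs and overlapping genes may share reads in ways the tables do not resolve.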

Additional observations from a re-analysis of the deposited data

Results flagged for a closer look

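Among the genes tested in abdomens, 5 ran in opposite directions in heads and abdomens for GFP males against GFP females or for N against SR. The groups did not overlap in either tissue for these 5, and they are listed for that reason. Genes that the filter on low values removed from the abdominal tests are not in this list. Some of those genes, such as LOC101900403, LOC109613219, LOC101896304 and LOC109611659, were also higher in every GFP female abdomen than in every GFP male abdomen. The difference between the tissues was not tested, since heads and abdomens were scaled separately, and the head side of the first 4 was set by the rule that chose the genes. For GFP males against GFP females in abdomens the log2 difference was -5.96 for LOC101888858, -4.53 for LOC101899257, -4.12 for LOC101893382 and -3.80 for LOC101887695, where GFP male heads were higher. For N against SR, LOC101896660 differed by -5.84 in abdomens and by 4.49 in heads. No group had 4 or more flies, so single flies were not examined as outliers.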

How the results depend on the processing

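Between N and SR heads the 7 called genes became 4 with edgeR, 12 with DESeq2, 13 with array weights, 1 with the library code number as a replicate block and 1 with the 6 libraries alone. The replicate number of the titles as a block gave 7, and leaving out 1 library gave 5 to 8. In abdomens the counts against GFP females were within 1.5 times under all alternatives (20 to 24 for GFP males, 24 to 27 for N and 17 to 19 for SR on leaving out 1 library). For N against GFP males, 2 genes became 6 without a filter, 1 with edgeR, 0 with the code number as a block, 0 with 2 groups only, 0 without the shallow N abdomens and 0 to 2 on leaving out 1 library. For SR against GFP males, 3 became 0 with edgeR, 5 with DESeq2, 5 with array weights and 0 with the code number as a block, with 3 on leaving out any 1 library. For N against SR, 8 became 3 with the code number as a block, 4 with 2 groups only, 3 without the shallow N abdomens and 4 to 13 on leaving out 1 library. The fit without the shallow N abdomens keeps 1 N library, which is assumed to vary like the other groups. Over all genes the code number as a block called 1, 3 and 185 genes for N against SR heads, N against GFP males and N against SR in abdomens, and the cause was not tested. The replicate number of the titles as a block moved no count in abdomens by over 1.5 times. Replicate numbers were not shown to pair N with SR, though in heads each N library correlated best with its own number (0.0617, 0.0690 and 0.247). DESeq2 called 203 genes in N against SR heads, 268 in SR against GFP male and 2250 in N against GFP male abdomens.

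The rule itself gave 36 genes at a minimum of 20 in GFP male heads, 159 at 5, 12 with no read allowed in GFP female heads, 42 with 1 read and 153 with 5. Leaving out 1 head, an alternative chosen after seeing the data, gave 94 to 174 (174 without GFP female replicate 3, 141 without replicate 1). In every N head 10 genes reached 20 (23 to 30 reached 10 on leaving out 1 library), and in every SR head 23 reached 5, 1 reached 20 and 13 to 15 reached 10 on leaving out 1 library. Of 59 gene results, 42 kept their call in all alternatives and 0 reversed. Depth limits the N abdomens most, where 3 reads were 23.5 and 23.3 normalized counts in the shallow libraries.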
